A study of Mus musculus with 27 samples.

Results

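Small nucleolar RNA (snoRNA) genes were followed in RNA-seq libraries of tumors grown from CT26 cells that were targeted for a subunit of the RNA methylation enzyme, and of control tumors. All genes whose mouse symbol starts with Snora or Snord were taken, and those that reached 10 counts in at least 5 of the 15 libraries were kept. This left 33 genes of the 54752 in the count tables, of which 12 were Snora and 21 Snord. Of the 141 Snora and Snord symbols in the tables, 73 had no read in any library and 35 had reads but did not reach the minimum. The genes were thus chosen by their counts, with no use of the group labels, and the family was taken up with earlier results of these data known. With a minimum on counts, a gene could enter mainly through the more deeply sequenced control libraries. Of the 33 genes, 7 reached 10 counts in all 15 libraries (Snora17, Snora23, Snora57, Snora74a, Snord118, Snord15a and Snord17), and 4 reached it in no Mettl3 KO library (Snord55, Snord70, Snord71 and Snord82). In 4 or 5 of the controls 29 of the 33 reached it, while 7 did so in all 5 Mettl3 KO libraries. The minimum thus favors genes that are high in controls, and the counts of lower snoRNA genes given below carry that limit.

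CT26 is a mouse colon carcinoma line. Its cells were transduced by retrovirus with guide RNAs against Mettl3 or Mettl14, or with a control guide, and were injected beneath the skin of BALB/c mice. The 3 groups were Mettl3 KO, Mettl14 KO and control tumors, with 5 libraries each. The series' design places all RNA-seq tumors under anti-PD-1 antibody, and its general protocol gives 200 µg (10 mg/kg) of checkpoint antibody every 3 days, first on day 11 and last on day 23. The knockouts were made in the injected tumor cells, so host cells in the tumor kept both genes. The labels do not tie libraries to animals or clones, so a p-value here reflects library-to-library spread, which may be technical.

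snoRNAs are short nucleolar RNAs that guide chemical modification of ribosomal RNA. Box C/D snoRNAs (Snord genes) bind fibrillarin and guide ribose methylation, and box H/ACA snoRNAs (Snora genes) bind dyskerin and guide pseudouridylation. In mammals most are cut out of the introns of host genes, many of which encode ribosomal proteins, and a few are transcribed from their own promoters. Mature snoRNAs carry no poly(A) tail.

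The sequences of 6 snoRNA genes on which the results turn show the hallmarks of the 2 classes. Snora57 (ENSMUSG00000070167) lies at chr19:8888538-8888685 on the minus strand, Snora23 (ENSMUSG00000064451) at chr7:110046364-110046547 on the plus strand and Snora78 (ENSMUSG00000089255) at chr17:24719676-24719803 on the minus strand. Snord17 (ENSMUSG00000077714) lies at chr2:144265979-144266216 on the minus strand, Snord15a (ENSMUSG00000065822) at chr7:99482785-99482932 on the minus strand and Snord104 (ENSMUSG00000065126) at chr11:106500993-106501062 on the plus strand. Positions and sequences are those of GENCODE M21 on mm10. Capitals mark the ACA that stands 3 bases before the 3′ end in the Snora genes, and the C box (TGATGA) and D box (CTGA) in the Snord genes.
Snora57: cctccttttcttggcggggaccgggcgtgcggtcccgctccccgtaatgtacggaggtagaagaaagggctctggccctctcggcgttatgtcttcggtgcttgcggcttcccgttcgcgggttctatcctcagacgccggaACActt
Snora23: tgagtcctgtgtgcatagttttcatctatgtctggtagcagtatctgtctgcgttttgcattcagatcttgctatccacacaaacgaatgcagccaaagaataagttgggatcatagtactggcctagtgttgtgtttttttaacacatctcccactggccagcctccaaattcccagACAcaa
Snora78: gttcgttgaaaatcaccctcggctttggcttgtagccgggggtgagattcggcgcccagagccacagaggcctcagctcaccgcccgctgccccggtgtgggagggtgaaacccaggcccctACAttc
Snord17: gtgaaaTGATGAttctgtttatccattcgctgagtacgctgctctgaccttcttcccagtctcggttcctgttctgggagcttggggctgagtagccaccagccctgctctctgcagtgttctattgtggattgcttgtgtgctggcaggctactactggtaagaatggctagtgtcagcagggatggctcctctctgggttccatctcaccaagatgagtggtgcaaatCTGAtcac
Snord15a: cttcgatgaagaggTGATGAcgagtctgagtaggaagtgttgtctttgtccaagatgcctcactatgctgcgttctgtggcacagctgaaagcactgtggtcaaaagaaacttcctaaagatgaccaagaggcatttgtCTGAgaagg
Snord104: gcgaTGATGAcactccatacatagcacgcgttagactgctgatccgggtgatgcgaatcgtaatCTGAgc

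An ACA 3 bases before the annotated end was found in 10 of the 12 Snora genes and in 35 of all 42 Snora symbols (83.3%). TGATGA within the first 20 bases together with CTGA within the last 20 was found in 13 of the 21 Snord genes, against 68 of all 99 Snord symbols (68.7%). Only the strand of the gene was searched, and the motifs do not overlap each other. The Snora genes were 128 to 196 nt long with a median of 132 nt. The Snord genes were 68 to 238 nt long with a median of 83 nt. The label snoRNA stood in the annotation for all of the genes except Snord43, which GENCODE M21 types as a miRNA. RNA was fragmented to 100 to 200 nt before library making, and 14 of the 33 genes are shorter than 100 nt.

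Reads assigned to genes numbered 6.57 ± 1.99 M in Mettl3 KO, 10.6 ± 4.30 M in Mettl14 KO and 14.2 ± 5.91 M in control libraries (mean ± SD, n = 5 each; M for mega). Reads aligned uniquely but outside any gene made up 68.3 ± 7.16% of uniquely aligned reads in Mettl3 KO, 58.5 ± 5.25% in Mettl14 KO and 54.8 ± 13.9% in control libraries. Control 1 stood apart from its group at 78.6% outside genes, with the other 4 controls at 44.3 to 53.8%. The targeted genes were checked first: Mettl3 KO libraries held 13.7 ± 1.47 CPM of Mettl3, against 19.4 ± 3.67 CPM for controls, and Mettl14 KO libraries held 61.3 ± 12.4 CPM of Mettl14, against 69.0 ± 11.7 CPM for controls, a difference within the SD. Mettl3 KO libraries held 54.3 ± 16.2 CPM of Mettl14, and Mettl14 KO libraries 17.1 ± 1.85 CPM of Mettl3. The level of Mettl14 thus does not mark its own knockout. Levels are in CPM, which relates counts to the total of gene reads, with trimmed-mean (TMM) scaling factors from the genes that passed the count filter. The scale was moved to those genes after levels from TMM factors over all genes had been seen, and values under both are given with the limits.

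Mean summed snoRNA levels were lower in both knockouts than in controls, and the controls differed most among themselves. The summed Snora level was 32.6, 45.5, 40.2, 37.5 and 63.1 CPM in Mettl3 KO libraries 1 to 5, 73.3, 66.9, 64.0, 49.5 and 91.8 CPM in Mettl14 KO libraries, and 57.5, 255.3, 249.1, 88.3 and 100.5 CPM in control libraries. The summed Snord level was 93.4, 113.1, 81.1, 70.4 and 104.6 CPM in Mettl3 KO libraries, 222.6, 143.8, 97.8, 156.5 and 132.4 CPM in Mettl14 KO libraries, and 85.2, 448.2, 609.4, 214.1 and 204.0 CPM in control libraries. In both classes controls 2 and 3 were the highest of all 15 libraries, and control 1 lay inside the range of the Mettl3 KO libraries. Mettl14 KO library 1 lay above controls 1, 4 and 5 in the Snord sum, and library 5 above controls 1 and 4 in the Snora sum.

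For Snora genes the mean sum was 43.8 ± 11.8 CPM (Mettl3 KO), 69.1 ± 15.4 CPM (Mettl14 KO) and 150.1 ± 94.5 CPM (control). The Snord sum averaged 92.5 ± 17.2, 150.6 ± 45.8 and 312.2 ± 212.0 CPM in Mettl3 KO, Mettl14 KO and control tumors. The highest control exceeded the lowest by 4.44-fold for Snora and by 7.16-fold for Snord genes, against 1.93-fold and 1.61-fold among Mettl3 KO libraries. The groups therefore overlapped in both classes. In bulk tumors, fewer cells of a type and less RNA per cell cannot be told apart.

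**Figure D1:**
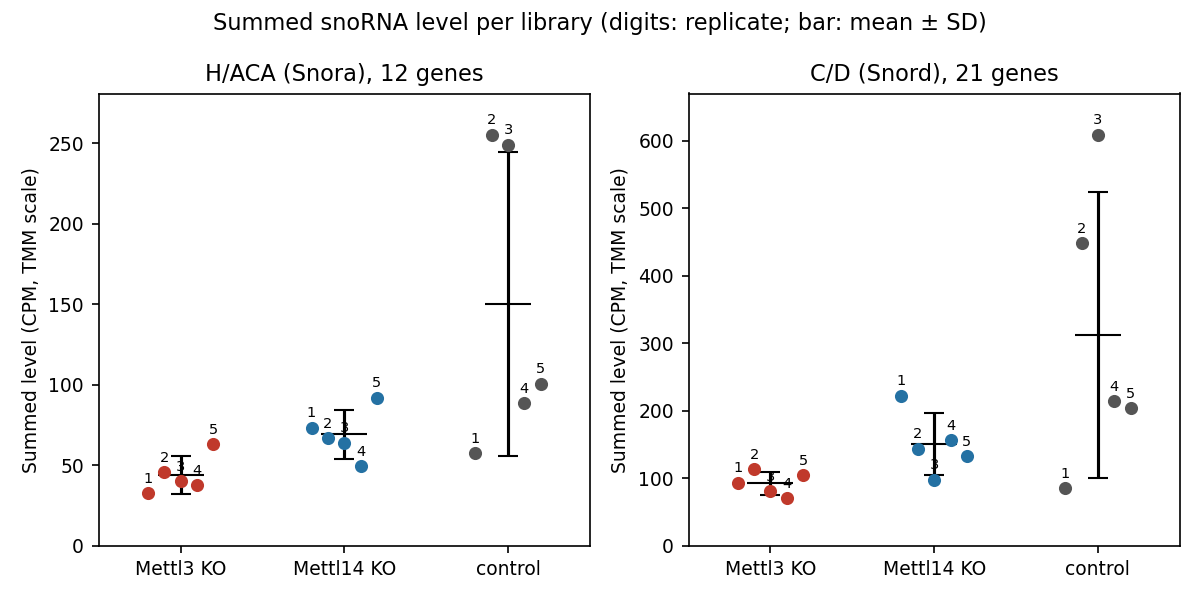
Summed level of the 12 Snora genes (left) and the 21 Snord genes (right) in CPM, 1 point per library with its replicate number; the bar is the mean ± SD of 5 libraries. Controls 2 and 3 stand above all other libraries (255.3 and 249.1 CPM for Snora), while control 1 lies among the Mettl3 KO libraries.

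The balance of the classes was similar in the groups. The Snord sum was 2.18 ± 0.487 times the Snora sum in Mettl3 KO, 2.26 ± 0.812 times in Mettl14 KO and 2.03 ± 0.419 times in control libraries, differences smaller than the SD. Snord17, a C/D snoRNA whose human counterpart guides ribose methylation of large-subunit ribosomal RNA, took 42.9 ± 6.93% of the reads of all 33 genes in Mettl3 KO, 43.1 ± 11.7% in Mettl14 KO and 40.5 ± 7.52% in control libraries. Per length, Snord17 had the highest mean level over the 15 libraries at 484.5 CPM per kb, ahead of Snora23 at 196.5, Snord15a at 134.6 and Snord104 at 127.3 CPM per kb. Snord17 and Snora23 were highest in each group, while the level of Snord104 was 51.5, 113.9 and 216.4 CPM per kb in Mettl3 KO, Mettl14 KO and control libraries and that of Snord15a 64.9, 79.1 and 259.9 CPM per kb, so their order differed in Mettl14 KO.

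The comparison of Mettl3 KO with control tumors asks which snoRNA genes differ in tumors whose cells were targeted for the catalytic subunit of the m6A writer. The edgeR quasi-likelihood test could be run on 22 of the 33 genes, those past its own count filter. All 22 had a negative log2 fold change, where 55.1% of all 21427 genes tested did, and their median was -1.79 against -0.14 for all genes. A single snoRNA gene, Snora57, fell below an adjusted p of 0.05, against 1.24% of all genes called in either direction and 0.835% called lower. Of the others, 12 had an adjusted p between 0.05 and 0.06, a band that held 7.72% of all genes tested. The unadjusted p was under 0.05 for 16 of the 22 snoRNA genes, against 32.3% of all genes.

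Snora57, an H/ACA snoRNA, was at 3.63, 4.33, 4.91, 1.87 and 5.35 CPM in Mettl3 KO libraries, against 4.78, 21.02, 21.6, 19.2 and 17.1 CPM in control libraries 1 to 5. Controls 2 to 5 lay close together and above every Mettl3 KO library, and control 1 lay within the Mettl3 KO range. Its log2 fold change was -2.10 ± 0.36 (SE; edgeR adjusted p = 0.029). In Mettl14 KO libraries it was at 14.0, 4.10, 5.28, 6.82 and 8.06 CPM, a log2 fold change of -1.14 ± 0.37 over control (edgeR adjusted p = 0.283). The gene lies within Lbhd1 on the opposite strand. The strand setting of the counting is not given in the sources used here, so reads of the pair cannot be told apart.

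Snord17 was at 67.1, 71.6, 51.3, 42.0 and 58.5 CPM in Mettl3 KO libraries, against 44.7, 237.7, 390.9, 146.3 and 132.9 CPM in control libraries. Every Mettl3 KO library lay below controls 2 to 5, and only library 4 lay below control 1. The log2 fold change was -1.76 ± 0.43 (edgeR adjusted p = 0.052), just short of the threshold. Its level in Mettl14 KO libraries was 158.0, 92.8, 49.4, 114.8 and 71.7 CPM, which reached above controls 4 and 5 in library 1 (log2 fold change -0.997 ± 0.455, edgeR adjusted p = 0.439).

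Snora23, an H/ACA snoRNA in an intron of the importin gene Ipo7, was at 13.4, 13.6, 15.5, 17.0 and 23.4 CPM in Mettl3 KO libraries, against 31.0, 136.1, 119.9, 23.1 and 17.1 CPM in control libraries. Controls 2 and 3 stood far above the rest, and controls 4 and 5 lay within the Mettl3 KO range. The log2 fold change was -2.001 ± 0.538 (edgeR adjusted p = 0.053). Snora23 also overlaps the gene 1600010M07Rik on the opposite strand, and the strand setting of the counting is not given. Snord15a, a C/D snoRNA in an intron of the ribosomal protein gene Rps3, was at 8.39, 10.1, 8.91, 10.5 and 10.2 CPM in Mettl3 KO libraries, against 11.3, 73.2, 76.2, 17.6 and 14.1 CPM in control libraries. Controls 2 and 3 were again the highest and control 1 the lowest control, and all Mettl3 KO libraries lay below all controls (log2 fold change -2.02 ± 0.52, edgeR adjusted p = 0.052).

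Snord118, which in human cells takes part in processing of the large-subunit ribosomal RNA precursor, had its own gene outside any host. It was at 5.21, 5.24, 3.64, 3.55 and 7.79 CPM in Mettl3 KO libraries, against 8.75, 44.7, 41.5, 8.96 and 9.75 CPM in control libraries. No Mettl3 KO library reached a control, and again controls 2 and 3 were several-fold above the other controls (log2 fold change -2.18 ± 0.51, edgeR adjusted p = 0.052). Snord13, which in human cells pairs with small-subunit ribosomal RNA to direct its acetylation, had the largest fitted decrease, -2.75 ± 0.63 on the log2 scale (edgeR adjusted p = 0.052). It was at 0.56 to 1.64 CPM in Mettl3 KO libraries with a median of 1.22, against 1.91, 14.4, 15.6, 2.47 and 3.77 CPM in control libraries.

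Snora78 behaved differently among the controls. It was at 1.59, 5.03, 2.55, 1.12 and 4.38 CPM in Mettl3 KO libraries, against 2.23, 6.27, 8.58, 14.2 and 26.3 CPM in control libraries, so that controls 4 and 5 were the highest. The log2 fold change was -2.04 ± 0.58 (edgeR adjusted p = 0.057). Snora78 lies in the non-coding host Snhg9 and within the ribosomal protein gene Rps2 on the opposite strand. Snord104 had a log2 fold change of -2.10 ± 0.52 and Snora21, in the ribosomal protein gene Rpl23, one of -2.48 ± 0.68 (edgeR adjusted p = 0.052 and 0.055). Snora74a had -1.73 ± 0.41 (edgeR adjusted p = 0.052); it overlaps exons of other annotated transcripts on its strand, so its reads may be split or dropped in counting.

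The smallest differences were those of Snord53 (-0.61 ± 0.63), Snord34 (-0.71 ± 0.58), Snora31 (-0.85 ± 0.43), Snord72 (-0.86 ± 0.41) and Snord43 (-0.91 ± 0.53), with edgeR adjusted p from 0.169 to 0.457. The classes had similar medians, -1.73 for 9 Snora genes and -1.82 for 13 Snord genes. All Mettl3 KO libraries lay below all controls for 3 of the 22 tested genes (Snord118, Snord13 and Snord15a), where 1.54% of all genes did, and below controls 2 to 5 for 15 of 22, where 18.1% of all genes did. Control 1 lay within the Mettl3 KO range for 17 of the 22, against 69.6% of all genes.

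**Figure D2:**
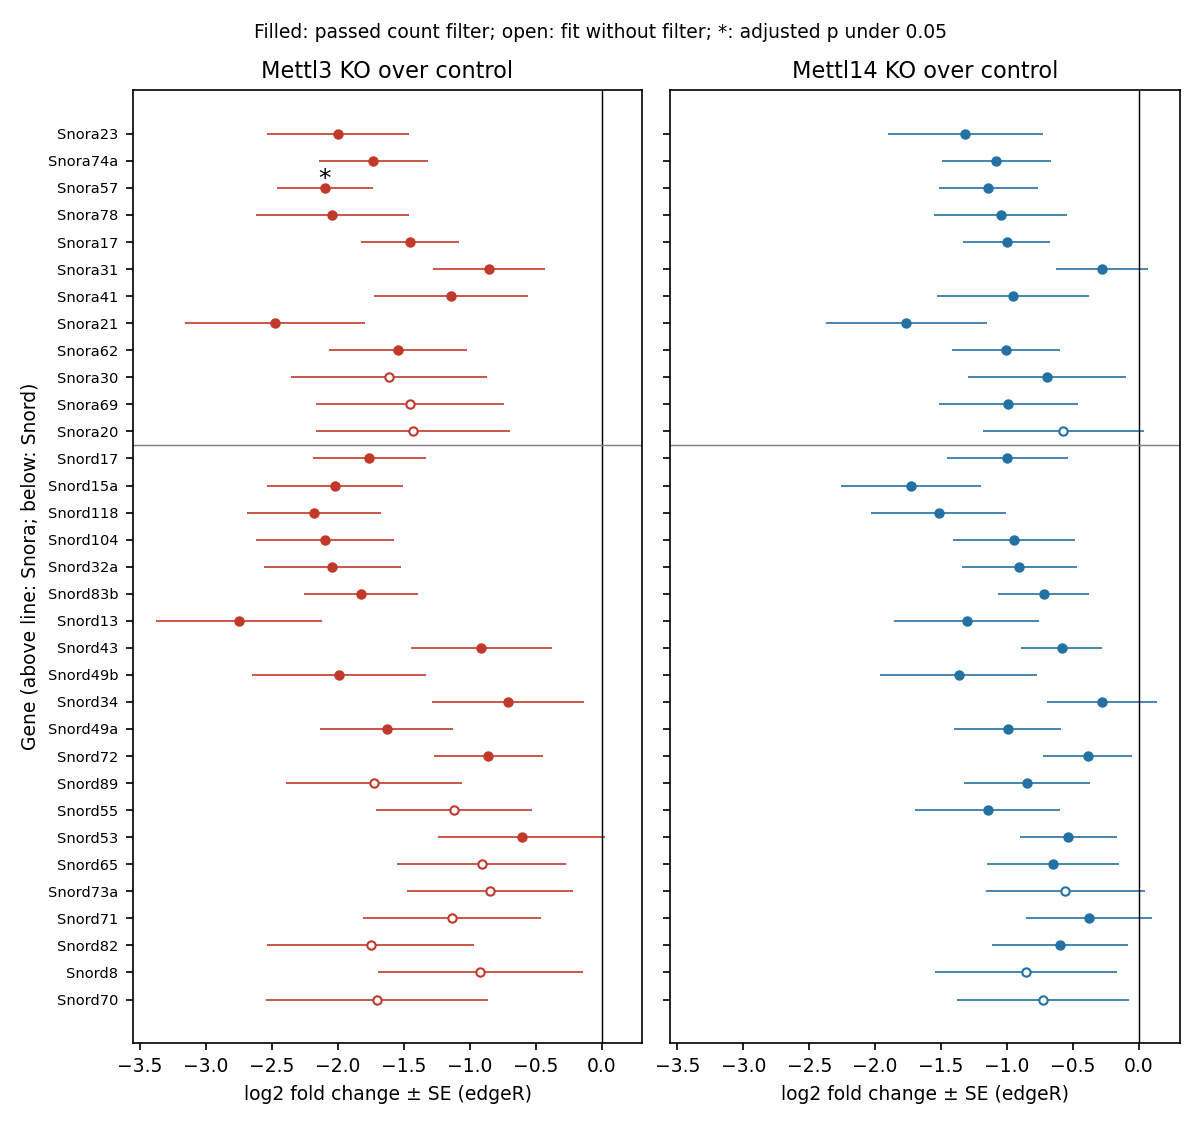
log2 fold change ± SE over control from edgeR for each snoRNA gene in Mettl3 KO (left) and Mettl14 KO tumors (right); filled points passed the count filter, open points come from a fit without it, and the asterisk marks an adjusted p under 0.05. All points lie below 0, and Snora57 in Mettl3 KO is the marked gene.

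The number of calls changed with the tool and with the libraries used. DESeq2 gave an adjusted p for 9 of the 22 and called all 9 lower, against 10.3% of all genes called lower; the other 13 had none. edgeR without a filter called 4 of 33, against 0.0598% of all genes called lower. With the replicate number as a block it called 12 of 22, against 19.2% of all genes called lower. That fit called 6002 of all 21427 genes in either direction. Without control 1 the edgeR test called 17 of 27 snoRNA genes lower, against 15.4% of all genes called lower. In either direction it called 11625 of all 22535 genes, against 266 of 21427 with every library in. With any other single library left out, no snoRNA gene was called. Without controls 2 and 3, a choice made after seeing the values, 0 of 20 were called, as were 0 of all 24512 genes, and the median was -0.82 against 0.11 for all genes.

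The comparison of Mettl14 KO with control tumors asks the same of the RNA-binding subunit of the writer. All 29 snoRNA genes tested had a negative log2 fold change, against 60.8% of all genes, with a median of -0.99 against -0.09 for all 21555 genes. None was called by edgeR, where 0.0% of all genes were called. The unadjusted p was under 0.05 for 12 of the 29 and for 11.3% of all genes (2444), and DESeq2 called 505 genes (0.844% of all genes lower), of which 1 was a snoRNA gene among the 16 it gave an adjusted p. That gene was Snord15a, at 11.97, 15.05, 7.79, 8.70 and 15.02 CPM in Mettl14 KO libraries against 11.3 to 76.2 CPM in controls (edgeR log2 fold change -1.73 ± 0.53, adjusted p = 0.261). Without control 1, edgeR called 4 of 33 snoRNA genes lower, against 2.0% of all genes.

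Snora21 (-1.76 ± 0.61), Snord118 (-1.52 ± 0.51), Snord49b (-1.37 ± 0.60) and Snora23 (-1.32 ± 0.59) had the other large differences, and Snora31 (-0.28 ± 0.35), Snord34 (-0.28 ± 0.41), Snord71 (-0.38 ± 0.48), Snord72 (-0.39 ± 0.34) and Snord53 (-0.54 ± 0.37) the smallest. The median was -1.01 for 11 Snora genes and -0.88 for 18 Snord genes. No snoRNA gene had all Mettl14 KO libraries below all controls, where 0.673% of all genes did, and 8 of 29 had them below controls 2 to 5, where 6.3% did. Without controls 2 and 3, 21 of the 29 snoRNA genes were negative, the median was -0.23 against -0.10 for all genes, and 0 of all 24180 genes were called. In that setting the summed Snord level in Mettl14 KO differed from control by -0.09 on the log2 scale, in place of -0.79.

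Set against each other directly in the fit of all 15 libraries, Mettl3 KO libraries had lower values than Mettl14 KO libraries for 26 of 27 snoRNA genes, with a median log2 fold change of -0.62 against -0.01 for all genes, 50.7% of which were lower. No gene of the 24566 tested was called by edgeR (0.0%). The unadjusted p was under 0.05 for 5 of the 27 snoRNA genes and for 12.8% of all genes (3152). DESeq2 called 68 of all 24557 genes and 0 of the 27 snoRNA genes, 8 of which had no adjusted p. Snord13 had the largest difference (-1.40 ± 0.55, edgeR adjusted p = 0.349), and Snord55 was the exception in direction (0.28 ± 0.55). With the share of reads outside genes as a covariate, 18 of the 27 were negative, the median was -0.16 and none had an unadjusted p under 0.05. Without Mettl14 KO 5, 24 of 28 were negative, the median was -0.36 and again none had an unadjusted p under 0.05. Both knockouts are compared with the same controls, so their separate decreases are not independent.

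**Figure D3:**
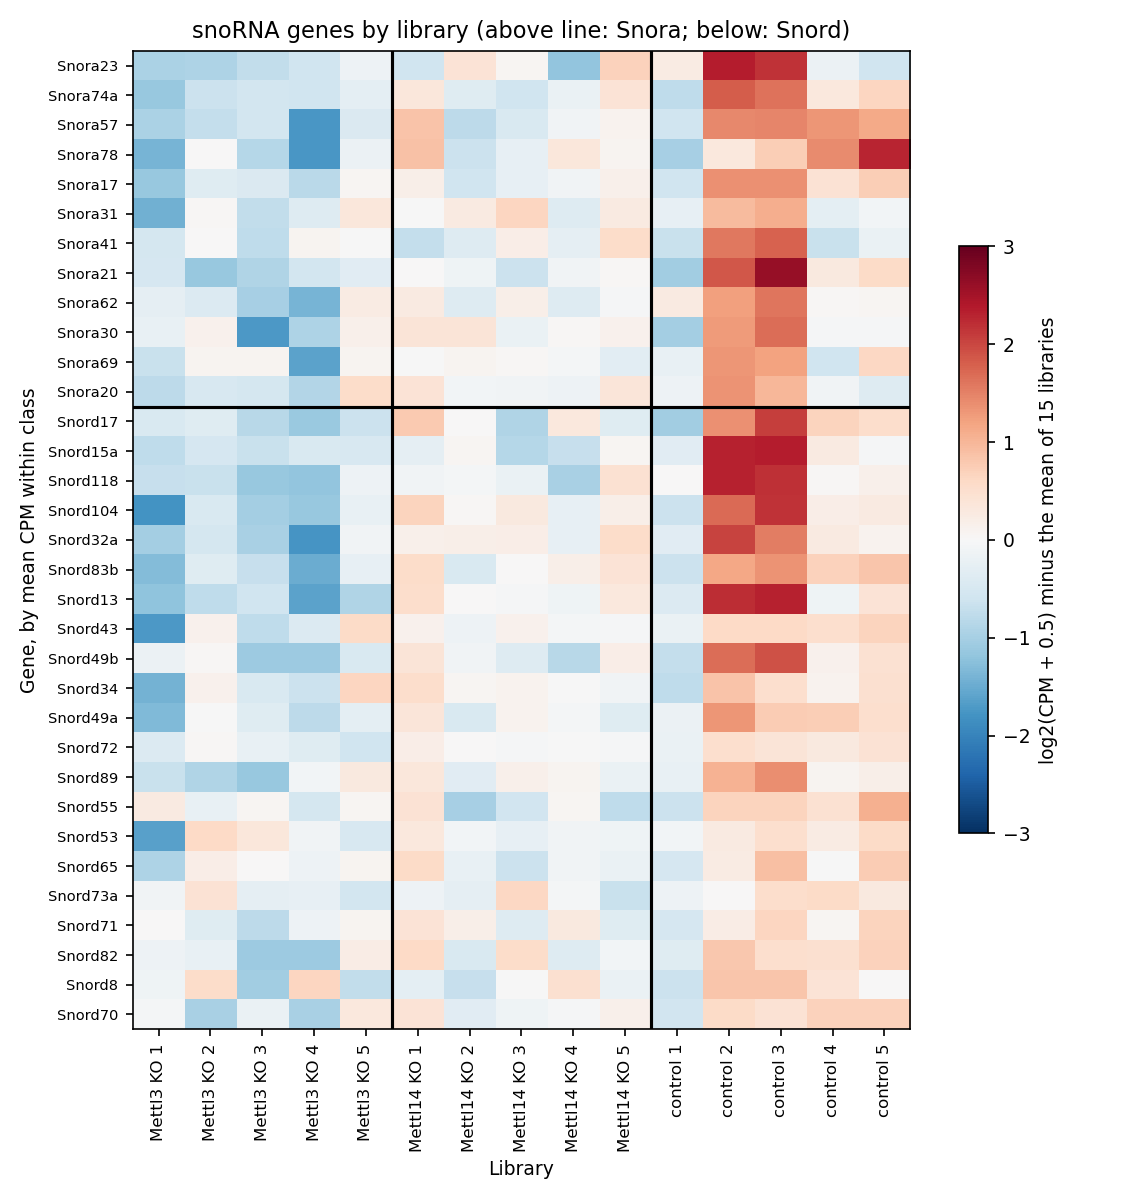
log2(CPM + 0.5) of each snoRNA gene minus its mean over 15 libraries, with libraries in columns by group and genes in rows by class and mean level; red is above and blue below the gene's mean. Controls 2 and 3 are red for nearly all genes, control 1 is mostly blue, and Snora78 is reddest in control 5.

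Among the controls, the snoRNA genes fell into different patterns, described here after seeing the values. Controls 2 and 3 both exceeded controls 4 and 5 for 23 of the 33 genes, 11 of 12 Snora and 12 of 21 Snord, against 20.6% of all genes. The mean of controls 2 and 3 was 6.37 times that of controls 4 and 5 for Snora23, 4.80 times for Snord13, 4.72 times for Snord15a and 4.61 times for Snord118. It was 1.17 times for Snora57 and 0.366 times for Snora78. Control 1 was the lowest control for 28 of the 33 genes, against 39.9% of all genes.

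Other small structured RNAs without a Snora or Snord symbol were read from a list of 22, which includes relatives of the snoRNAs: 7 of the 13 tested are Scarna genes, Rnu73b or Terc. None of the 13 tested was called in Mettl3 KO (edgeR), all 13 had a negative log2 fold change, and their median was -1.19. Rny1, a Y RNA, was at 3.17, 4.33, 2.73, 4.86 and 23.1 CPM in Mettl3 KO libraries, against 10.7, 361.4, 263.1, 19.5 and 23.6 CPM in control libraries (log2 fold change -4.13 ± 1.04, edgeR adjusted p = 0.052). Controls 2 and 3 both exceeded controls 4 and 5 for 9 of these 13 RNAs.

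The proteins of the snoRNA particles differed less. The 4 box C/D core proteins and the 4 box H/ACA core proteins had median log2 fold changes of -0.71 and -0.70 in Mettl3 KO and of -0.28 and -0.35 in Mettl14 KO, with none called by edgeR. Of 18 assembly and processing factors, Naf1, an H/ACA assembly factor, fell in Mettl3 KO (-0.90 ± 0.18, edgeR adjusted p = 0.046) and the median was -0.45. Of 15 non-coding host genes tested, Gas5 (-1.06 ± 0.23, adjusted p = 0.0498) and Snhg8 (-1.02 ± 0.22, adjusted p = 0.048) fell by edgeR, with a median of -0.79. Of all genes, 0.835% were called lower in Mettl3 KO. A negative log2 fold change was found for 12 of the 15 hosts, and a positive one for Snhg11 (0.94 ± 0.67), Rian (0.57 ± 0.34) and Snhg14 (0.27 ± 0.41). In Mettl14 KO none of these lists had a called gene.

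In the annotation 28 of the 33 genes lie inside a host gene on their own strand, 22 of them in protein-coding and 6 in non-coding hosts, and 11 in ribosomal protein genes. In Mettl3 KO all 22 hosts tested had a negative log2 fold change, from -1.11 to -0.33, and none was called. Of 15 snoRNA genes tested together with their host, 10 had the larger decrease, with medians of -1.63 for the snoRNAs and -0.97 for the hosts. In Mettl14 KO 20 of 22 had the larger decrease, with medians of -0.88 and -0.42. Snord17 differed by -1.76 in Mettl3 KO and its host Snx5, a sorting nexin gene, by -0.53.

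The fitted values of snoRNAs from a shared host lay apart in some hosts and closer in another. In Rpl13a, a ribosomal protein gene with a log2 fold change of -0.71 in Mettl3 KO, Snord32a had -2.04 ± 0.52 and Snord34 -0.71 ± 0.58. In Rpl3, with -1.06, Snord83b had -1.82 ± 0.43 and Snord43 -0.91 ± 0.53. In the non-coding host 2410006H16Rik, with -1.11, Snord49a had -1.63 ± 0.50 and Snord49b -1.99 ± 0.66. The difference within each pair was not tested. Snord34, Snord43 and Snord49a were down to 1 count in a Mettl3 KO library, and Snord49b to 2.

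**Figure D4:**
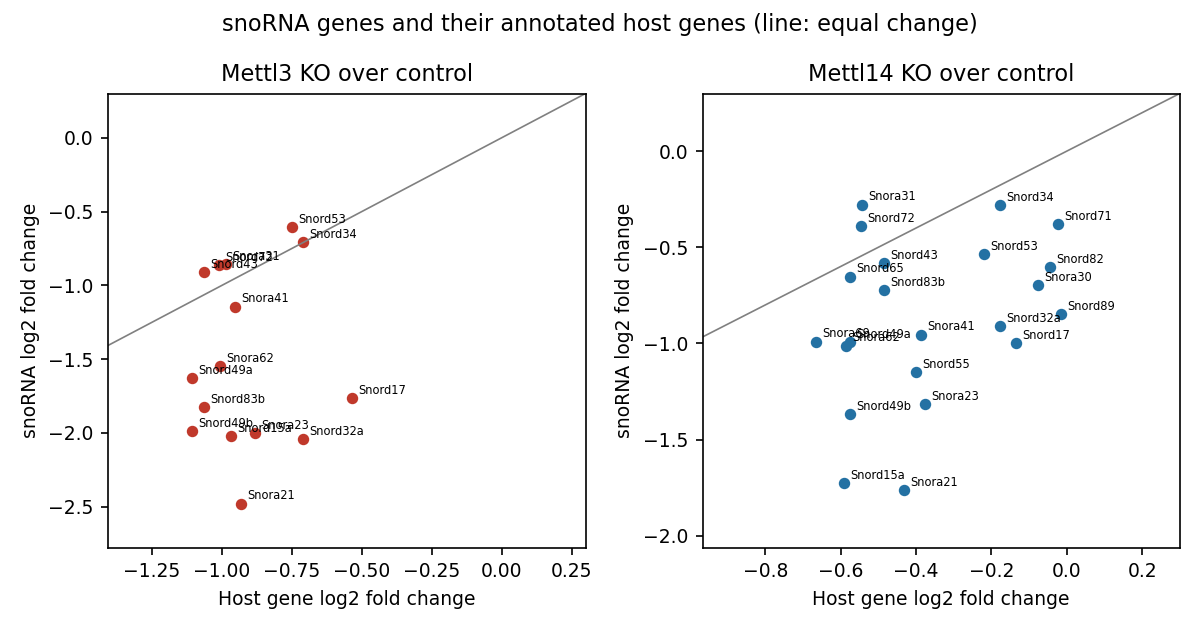
log2 fold change of each snoRNA gene against that of its annotated host gene in Mettl3 KO (left) and Mettl14 KO tumors (right), both over control; the line marks equal change. In Mettl3 KO 10 of 15 points and in Mettl14 KO 20 of 22 lie below the line.

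The summed snoRNA level was lower where the share of reads outside genes was higher. Many genes moved with that share: 68.1% of all genes had a called slope on it, and 29.1% a lower one (edgeR). Over the 15 libraries, log2 of the summed level correlated with that share with Pearson r = -0.72 and Spearman rho = -0.81 for Snora and r = -0.80 and rho = -0.88 for Snord genes. Without the libraries farthest from the median share, Mettl3 KO 4 and control 1, r was -0.75 for Snora and -0.78 for Snord genes (n = 13). In the 10 knockout libraries alone r was -0.66 and -0.74. Both measures come from the same library, and the correlations are descriptions with no value for all genes beside them.

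A slope on the share of reads outside genes, fitted by edgeR with group as a factor, was negative for all 27 snoRNA genes tested, against 48.5% of all genes. It was called lower for 16 of the 27, where 29.1% of all genes were called lower and 68.1% were called in either direction. The median was -0.48 per 10 percentage points on the log2 scale, against 0.03 for all genes. The unadjusted p was under 0.05 for 18 of the 27 and for 70.6% of all genes. Snora78 had the steepest slope (-0.92 ± 0.17), and Snora23 the shallowest (-0.18 ± 0.32, edgeR adjusted p = 0.639). By class, 7 of 12 Snora and 9 of 15 Snord genes were called. Without control 1 the count was 4 of 29, close to the 13.7% of all genes called lower. Without the group factor it was 25 of 27 (34.6% of all genes), and without a count filter 25 of 33 (20.5%).

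With that share as a covariate, Snora57 remained the 1 snoRNA gene called in Mettl3 KO (-1.26, edgeR adjusted p = 0.045), where 55 of all 21427 genes (0.257%) were called. In that fit 21 of 22 had a negative log2 fold change and the median was -0.91, against -0.09 for all genes. In Mettl14 KO 28 of 29 were negative with a median of -0.63, against -0.01 for all genes, and 0 of all genes were called. Whether the share of reads outside genes has a part in the group differences was not tested apart from this fit.

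**Figure D5:**
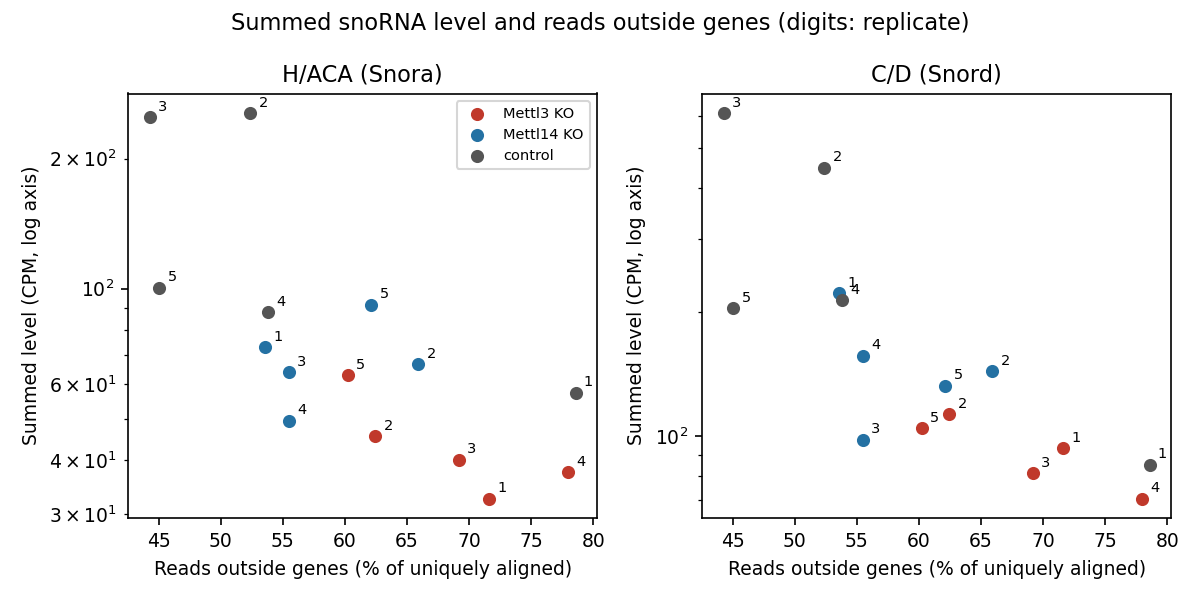
Summed Snora (left) and Snord level (right) in CPM on a log axis against the percentage of uniquely aligned reads outside genes, 1 point per library with its replicate number. Levels are lower where more reads lie outside genes, and control 1, at 78.6%, lies beside the Mettl3 KO libraries.

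Levels of some cell type markers differed between the groups, and the ranges of others overlapped. The summed level of 5 tumor line and epithelial markers ranged over 50.9 to 109.8 CPM in Mettl3 KO, 82.3 to 166.3 CPM in Mettl14 KO and 180.2 to 235.8 CPM in control libraries. Krt20 carried most of this sum and was the 1 of the 5 called lower in Mettl3 KO. Krt8 (0.72 ± 0.65), Epcam (1.22 ± 0.78) and Cdh1 (0.52 ± 0.50) had positive log2 fold changes there, and the median of the 5 was 0.52. The 3 erythroid markers ranged over 18.5 to 52.8, 24.7 to 51.3 and 54.3 to 249.6 CPM in Mettl3 KO, Mettl14 KO and control libraries, with 2 called lower in Mettl3 KO. The 7 leukocyte markers ranged over 590.1 to 1326, 457.0 to 2144 and 316.8 to 731.2 CPM, the 4 muscle markers over 20.6 to 621.2, 3.11 to 29.2 and 20.4 to 261.3 CPM and the 4 fibroblast markers over 803.6 to 1804, 1229 to 4118 and 842.4 to 2049 CPM, in the same order of groups, with none called. Their part in the snoRNA result was not tested.

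In the authors' deposited table for Mettl3 KO all 33 snoRNA genes had a negative log2 fold change, against 34.4% of all genes in it, and 11 of the 15 with an adjusted p were lower at under 0.05, against 8.18% of all genes with one. Snora57, the gene called by edgeR here, was not among these 11 (authors' DESeq2 log2 fold change -2.47, adjusted p = 0.0892). These 33 include the 4 genes that met the count minimum in no Mettl3 KO library. In the authors' deposited table for Mettl14 KO all 33 were negative, against 53.5% of all genes, and 1 of 16 passed, Snord15a (-1.70, adjusted p = 0.0309), against 0.949% of all genes called lower. Of the genes at the edge of the count minimum, Snord70, Snord71 and Snord82 met it in exactly 5 libraries with at most 27 counts, and Snora47, Snord110, Snord35a, Snord59a, Snord7, Snord92 and Snord98 met it in 4 libraries, also with at most 27 counts.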

How the data were processed

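RNA-seq counts of 15 tumor libraries were used, and 12 MeRIP and input samples were not analysed here. The authors deposited raw counts per gene, made with cutadapt 1.18, HISAT2 2.1.0 and HTSeq 0.11.2 on mm10, per the submitters' processing notes. Their deposited tables also hold log2 fold changes and p-values from DESeq2. Reads were single, 75 nt. The labels' protocols name both ribosomal depletion and poly(A) selection. The genotype label of the Mettl14 samples reads Mettl4 in places; titles were followed. HTSeq's special lines were left out of library sizes and made up 56.8 to 86.2% of all reads.

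edgeR 4.0.16 (R 4.3.3; filterByExpr minimum count 10, TMM, robust quasi-likelihood, Benjamini-Hochberg over all genes, threshold 0.05) gave all tests, and DESeq2 1.42.0 an alternative. Tested on simulated data with genes changed by 2 on the log2 scale, edgeR recovered 98 of 100 in the Mettl3 KO comparison over 21427 genes. The simulation used the same level of spread for all genes and held no library that stood apart as control 1 does. It thus does not measure how often a change of that size would be called in these libraries. CPM used TMM factors from genes past the filter over all 15 libraries, the factors of the 15-library fit. Each knockout-against-control fit made its own factors from its own libraries. CPM values were first computed with TMM factors from all genes, and the change was made after those values had been seen. Members and gene lists were chosen with earlier results of these data known. Genes named are the called ones, the 8 most abundant, the 5 highest and 5 lowest fold changes per knockout, and a fixed list. The smallest chi-square per gene between replicates was 11.52, so no library was a repeat of another. Hosts and sequences come from GENCODE M21; the authors' annotation release is not given in the sources used here. Alternatives were other scaling, filters, a replicate block, a covariate and leaving out libraries.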

Additional observations from a re-analysis of the deposited data

Results flagged for a closer look

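In 63 groups of 5 libraries, 6 values, 3 of control 1 and 3 of Mettl14 KO 1, stood apart from the other 4 of their group by more than Dixon's 95% limit, which chance gives in about 1 of 20 groups. Control 1 had 4.78 CPM of Snora57, with the other controls at 17.1 to 21.6, and 1.59 CPM of Snord43, with the others at 2.86 to 3.27. The same library had 78.6% of reads outside genes, with the others at 44.3 to 53.8%. Mettl14 KO 1, the deepest library of its group, had 2.29 CPM of Snord34 (others 1.31 to 1.58), 1.64 CPM of Snord72 (others 1.31 to 1.37) and 1.41 CPM of Snord53 (others 0.79 to 0.96). With TMM factors from all genes, 6 in place of 5 values of named genes stood apart.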

How the results depend on the processing

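Mettl3 KO against control gave 1 called snoRNA gene of 22 tested, where 0.835% of all genes were called lower. With no filter it gave 4 of 33 (0.0598% of all genes lower) and with the replicate block 12 of 22 (19.2%). By DESeq2 it gave 9 of the 9 with an adjusted p (10.3%). Leaving out 1 library gave 17 of 27 without control 1 (15.4%) and 0 without each of the other libraries. Without controls 2 and 3 it gave 0 of 20 (0 of all 24512 genes). Snora57 had an adjusted p of 0.060 to 0.109 without each library other than control 1. Mettl14 KO gave 0 of 29 (0 of all genes), 0 of 29 with the replicate block and 1 of 16 by DESeq2 (0.844% of all genes lower). When 1 library was left out it gave 4 of 33 without control 1 (2.0%) and 0 without each of the other libraries. Mettl3 KO against Mettl14 KO gave 0 under every alternative run, where DESeq2 called 68 of all 24557 genes. The slope gave 16 of 27 (29.1% of all genes lower) and 25 of 27 without the group factor (34.6%). With no filter it gave 25 of 33 (20.5%) and without control 1 it gave 4 of 29 (13.7%). Replicate numbers did not pair the libraries (correlations of deviations -0.75 to 0.61), so the block is a number only.

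Without controls 2 and 3 the summed Snora difference was -0.90 in Mettl3 KO and -0.24 in Mettl14 KO, and the Snord difference -0.76 and -0.09. TMM factors from all genes, the scale used first, moved the summed Snora difference in Mettl3 KO to -1.79 in place of -1.57, and the Snord difference to -1.69 in place of -1.47. In Mettl14 KO the values were -0.94 in place of -0.90 and -0.83 in place of -0.79. On that scale Mettl3 KO libraries held 12.6 ± 2.47 CPM of Mettl3, against 21.2 ± 6.13 CPM for controls. All Mettl3 KO libraries then lay below all controls for 1 snoRNA gene in place of 3 (0.91% of all genes), and below controls 2 to 5 for 16 in place of 15 (28.6%). For Mettl14 KO 10 in place of 8 lay below controls 2 to 5 (11.5%). The correlation with reads outside genes was -0.79 for Snora and -0.86 for Snord genes. The edgeR tests were the same under both, since each fit makes its own factors. Low counts limit the 11 genes that could not be tested in Mettl3 KO, and the causes of these shifts were not tested.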
